A study of Mus musculus with 13 samples.

Results

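The genes described here encode the costimulatory and inhibitory receptors Cd28, Icos, Ctla4, Pdcd1, Btla, Lag3, Tigit, Cd200 and Cd160. They were taken as a list of names, chosen with earlier results of these data known. They are 9 of the 35906 genes to which the transcripts of the study were collapsed. All 9 passed the count filter of every comparison. The study asked how thymic epithelial cells that lack the protease cathepsin L, encoded by Ctsl, shape CD4+ T cells during positive selection. Bulk RNA sequencing was done on M2 thymocytes, the most mature CD4 single-positive (CD4SP) stage, sorted as CD69- and MHCI+. Each of the 13 libraries came from 1 mouse.

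All mice carried the Lm54 T cell receptor transgene, specific for a listeriolysin O (LLO) peptide on I-Ab, on a Rag1-/- background. In CtslΔTEC mice (labelled Lm54 Rag1-/- CtsldeltaTEC), Foxn1-cre removes floxed Ctsl in thymic epithelial cells, so that the sorted thymocytes are not the cells meant to lose the gene. Control mice are labelled Lm54 Rag1-/- Ctsl fl/fl (WT) and are called WT. Mice of the study were 8-12 weeks old unless otherwise stated and of both sexes. Unstimulated cells came from 5 CtslΔTEC and 4 WT mice. Stimulated cells came from 2 CtslΔTEC and 2 WT mice and were kept for 4 h with soluble anti-CD28 at 250 ng/ml and plate-bound LLO:I-Ab monomer at 1 µg/ml. Anti-CD28 was thus part of the stimulus in every stimulated library.

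CD28 and ICOS add a second signal to that of the T cell receptor and favour proliferation, survival and cytokine production. CTLA-4 competes with CD28 for CD80 and CD86, PD-1 (Pdcd1) binds PD-L1 and PD-L2, and BTLA and CD160 share the ligand HVEM. LAG-3 binds MHC class II, TIGIT competes with the activating receptor CD226 for CD155, and CD200 is the ligand of the inhibitory receptor CD200R1. Several of these inhibitory receptors are at low levels on naive T cells and appear within hours of T cell receptor engagement.

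Total estimated counts were 25692380 to 39127833 in unstimulated and 8085463 to 27184520 in stimulated libraries, the lowest being that of stimulated WT mouse 5. Ctsl itself was at 6.31 to 8.84 CPM (counts scaled to the effective size of the library, with TMM factors) in unstimulated WT and 11.4 to 17.9 CPM in unstimulated CtslΔTEC thymocytes, and Foxn1 at no more than 2 counts, so the deletion cannot be checked in these cells. Transcripts of Rag1 were counted in both genotypes (2.78 to 26.5 CPM unstimulated), and whole-gene counts do not test that deletion either. Cd4 was at 745 to 1156 CPM in all libraries, and Cd69 at 43.3 to 64.8 CPM before and 2670 to 3378 CPM after stimulation. Of 10 marker genes of mature CD4SP T cells, 1 was higher and 5 were lower in unstimulated CtslΔTEC than in WT cells (6.42% and 8.36% of all genes), and 1 was higher and 3 were lower after stimulation (2.77% and 10.6%). Of 7 tested marker genes of double-positive (DP) thymocytes, 6 were higher in unstimulated CtslΔTEC than in WT cells, and the list summed to 281 to 347 against 94.3 to 124 CPM. Cd8a, one of its defining markers, was at 23.1 to 33.5 CPM in CtslΔTEC and 4.10 to 4.65 CPM in WT cells. Y-linked genes were expressed by all 5 unstimulated CtslΔTEC mice but, of the WT mice, by mouse 3 alone, so sex nearly follows genotype there. In stimulated cells each genotype had 1 mouse that expressed them and 1 that did not. Stimulated libraries carry another file date than unstimulated ones, and their cells spent 4 h in culture, with no treatment given for unstimulated cells. Stimulation, that date and the time in culture cannot be told apart. As these are bulk samples, fewer cells that use a gene and less RNA per cell cannot be told apart either.

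The levels of the receptor genes spanned a wide range. On the per-length TPM scale (transcripts scaled by length and library total), Cd28 led in unstimulated WT cells at 119 ± 30.3 TPM (SD, n = 4), followed by Btla at 86.2 ± 18.0 TPM and Icos at 42.0 ± 3.57 TPM. Cd28 and Btla overlapped in range, and both lay above Icos in every library. Next came Cd200 at 21.1 TPM (6.28 TPM in its protein-coding transcripts), then Pdcd1 at 3.76 TPM, Ctla4 at 2.23 TPM and Cd160 at 1.36 TPM, of which Pdcd1 and Ctla4, and Ctla4 and Cd160, overlapped. Tigit (0.806 TPM) and Lag3 (0.308 TPM) closed the order and overlapped each other. In unstimulated CtslΔTEC cells, Ctla4 (7.31 TPM) and Cd160 (4.81 TPM) stood before Pdcd1 (3.65 TPM) in this order.

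After stimulation Btla had the highest level, at 332 ± 102 TPM in WT and 286 ± 7.87 TPM in CtslΔTEC cells (SD, n = 2 each). Pdcd1 moved up to 94.9 TPM in WT and 145 TPM in CtslΔTEC cells, while Tigit was last in both genotypes at 3.97 and 0.522 TPM, in WT cells within the range of Lag3. The rank of Cd200 depended on which transcripts were counted. Its 210 and 192 TPM came mostly from a 281-base non-coding transcript, and its protein-coding transcript alone reached 32.8 TPM in WT and 19.8 TPM in CtslΔTEC cells.

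**Figure D1:**
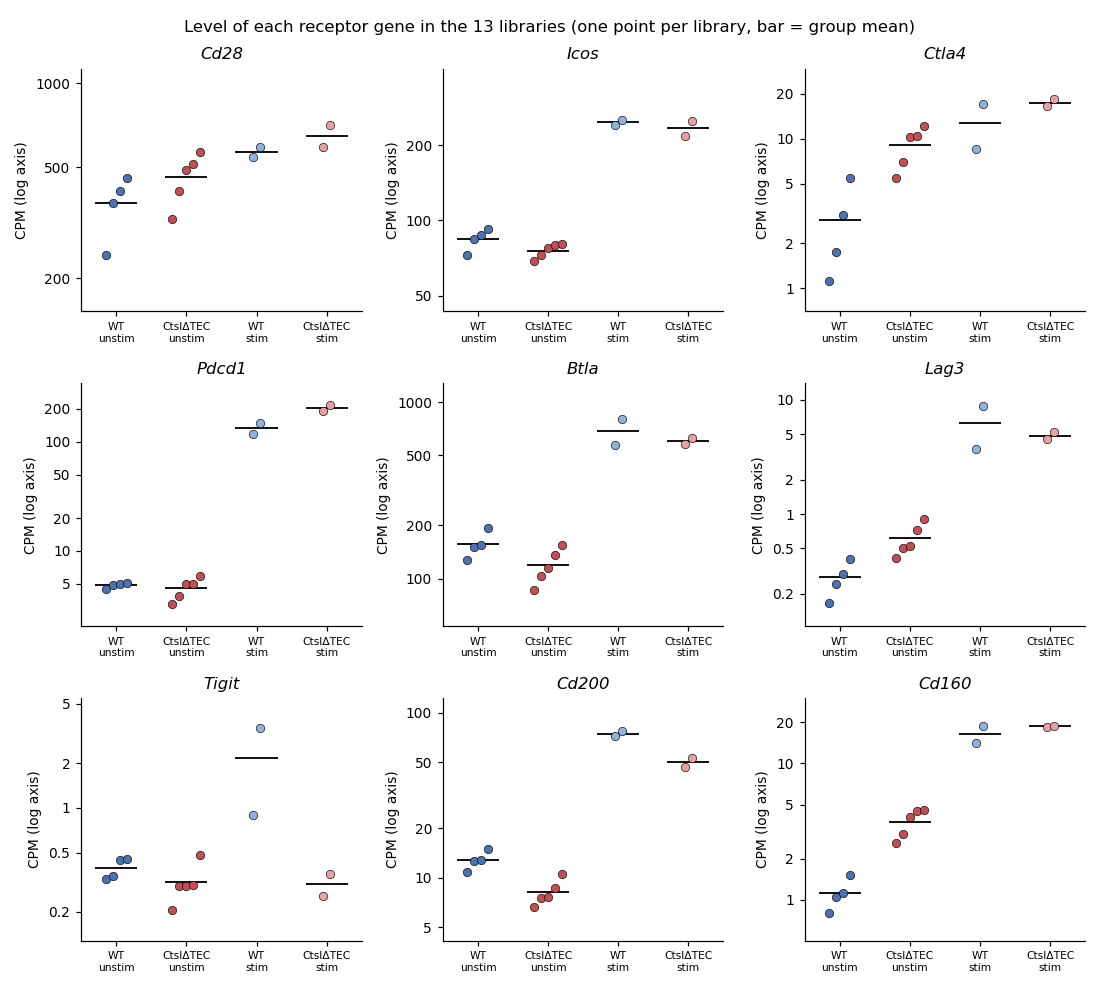
Level of each receptor gene in CPM (log axis) in the 13 libraries, one point per library and a bar at the group mean; blue marks WT and red CtslΔTEC, dark unstimulated (n = 4 and 5) and light stimulated (n = 2 each). For Cd160, unstimulated CtslΔTEC libraries lie between 2.63 and 4.54 CPM, above the WT libraries at 0.805 to 1.52 CPM, and all stimulated libraries lie between 14.1 and 18.9 CPM.

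In the mouse genome (GRCm38, GENCODE M21) Cd28 lies at chr1:60716800-60773359, Ctla4 at chr1:60887000-60915832 and Icos at chr1:60977927-61000320, all on the plus strand and next to each other, with 113.6 and 62.1 kb between them. Pdcd1 is on the same chromosome at chr1:94038305-94052553 (minus strand). Btla (chr16:45224315-45257670, plus) and Cd200 (chr16:45382135-45409053, minus) are 124.5 kb apart, with Tigit at chr16:43648867-43664146 (minus). Lag3 lies at chr6:124904361-124911705 (minus) and Cd160 at chr3:96798763-96829351 (minus).

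Promoter sequences from RefSeq (GRCm38.p6) were used for 6 of the 9 genes (not for Cd28, Icos and Lag3). The 250 bases before the start are shown for Ctla4 and Cd160, which differed most between the genotypes in unstimulated cells, and for Pdcd1, which responded most to stimulation. Capitals mark GGAAA, the core bound by NFAT factors, or its reverse complement TTTCC. The Ctla4 window is chr1:60908775-60909024 (plus strand), upstream of Ctla4-201 and intronic in a longer gene model. The Pdcd1 window is chr1:94052554-94052803 (minus), outside annotated genes. The Cd160 window is chr3:96814522-96814771 (minus), upstream of Cd160-201 and intronic in the longer Cd160 transcripts.
Ctla4: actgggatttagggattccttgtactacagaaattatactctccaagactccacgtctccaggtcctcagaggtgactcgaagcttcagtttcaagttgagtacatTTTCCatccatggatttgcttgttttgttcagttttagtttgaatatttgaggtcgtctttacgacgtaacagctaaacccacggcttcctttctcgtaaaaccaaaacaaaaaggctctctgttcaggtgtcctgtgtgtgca
Pdcd1: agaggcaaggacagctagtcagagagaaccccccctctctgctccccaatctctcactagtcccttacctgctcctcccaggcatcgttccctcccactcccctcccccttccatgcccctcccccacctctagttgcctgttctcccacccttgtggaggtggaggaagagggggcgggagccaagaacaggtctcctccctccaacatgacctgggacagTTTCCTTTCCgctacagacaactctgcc
Cd160: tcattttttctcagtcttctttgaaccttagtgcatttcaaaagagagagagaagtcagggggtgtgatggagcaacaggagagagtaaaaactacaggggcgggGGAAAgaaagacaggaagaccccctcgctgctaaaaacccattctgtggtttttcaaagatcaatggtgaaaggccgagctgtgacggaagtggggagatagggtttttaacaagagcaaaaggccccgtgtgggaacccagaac
GGAAA occurred once before Ctla4 (144 bases from the start), and 2 times before Pdcd1 (28 and 23 bases) and once before this start of Cd160 (145 bases). Tigit also held 2 matches, whereas Btla, Cd200 and the other start of Cd160 held none. Of 32851 promoter windows of the same length, 55.6% had at least 1 match on either strand and 21.4% had 2 or more. TGANTCA (AP-1, in 6.75% of all windows) and TGACGTCA (CRE, 1.55%) had no match in any of the 7 windows of the 6 genes. The matches are a description of letters in these windows and not of binding.

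Unstimulated CtslΔTEC cells had more Ctla4, Cd160 and Lag3 RNA and less Cd200 RNA than WT cells, while the other 5 genes did not pass the test. These 4 of 9 genes (44.4%) compare with 14.8% of all 13152 genes tested (edgeR quasi-likelihood test on the 9 unstimulated libraries, adjusted p under 0.1). By direction, 3 of the 9 were higher, against 6.42% of all genes, and 1 was lower, against 8.36%. The ranges of the genotypes did not overlap for these same 4 genes, against 13.9% of all genes tested. Lag3 is in all of these counts, although it passed the count filter through the CtslΔTEC libraries, where it was higher. Over all 9 genes the median log2 fold change was -0.09, and over all genes tested it was 0.01.

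Cd160, an immunoglobulin superfamily receptor of NK and T cells, differed most. It was at 2.63, 3.06, 4.06, 4.46 and 4.54 CPM in the CtslΔTEC libraries and at 0.805, 1.05, 1.13 and 1.52 CPM in the WT libraries. Every CtslΔTEC library lay above every WT library. The difference was 3.34-fold (log2 1.74, SE 0.24, edgeR adjusted p = 6.5e-04, exact permutation p = 0.00794, two-sided, which is the smallest p that 5 against 4 libraries allow). It kept its call when any 1 of the 9 libraries was left out (adjusted p 4.2e-04 to 0.00358).

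Ctla4, the competitor of CD28 for its ligands, was at 5.44, 7.02, 10.3, 10.5 and 12.2 CPM in CtslΔTEC and at 1.12, 1.75, 3.08 and 5.42 CPM in WT libraries. The groups did not overlap, although the lowest CtslΔTEC library (mouse 5) and the highest WT library (mouse 1) nearly met. The fold was 3.16 (log2 1.66, SE 0.39, edgeR adjusted p = 0.0188, exact permutation p = 0.00794). Within WT, Ctla4 varied more than any other receptor gene relative to its mean (2.84 ± 1.90 CPM, SD, n = 4).

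Lag3, which binds MHC class II, was close to the detection limit, with 14 to 36 counts in CtslΔTEC and 6 to 14 counts in WT libraries. It passed the count filter through the CtslΔTEC libraries, and with at least 10 counts required in every library it was not tested. Its levels were 0.408, 0.499, 0.521, 0.720 and 0.910 CPM in CtslΔTEC and 0.167, 0.245, 0.297 and 0.406 CPM in WT libraries. The ranges touched without overlapping, at 2.20-fold (log2 1.13, SE 0.34, edgeR adjusted p = 0.0587, exact permutation p = 0.0159). The nearest libraries, CtslΔTEC mouse 2 and WT mouse 1, held 14 counts each. Their exact Poisson intervals (95%, counting error only) were nearly the same, at 0.223 to 0.684 and 0.222 to 0.681 CPM. This call was lost without CtslΔTEC mouse 4 or any of WT mice 2, 3 and 4 (adjusted p up to 0.157). It was also lost with a correction for transcript length (log2 1.12, edgeR adjusted p = 0.211) and in the libraries of the second file date (log2 0.75, adjusted p = 0.263, 3 against 3).

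Cd200, the ligand of the receptor CD200R1, was the gene of the 9 that was called lower. It was at 6.64, 7.50, 7.63, 8.64 and 10.5 CPM in CtslΔTEC and at 10.8, 12.6, 12.8 and 14.9 CPM in WT libraries. All CtslΔTEC libraries lay below all WT libraries, and WT was 1.56-fold higher (log2 -0.64, SE 0.14, edgeR adjusted p = 0.0124, exact permutation p = 0.0159).

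The other 5 genes did not pass between the unstimulated genotypes, though Cd28 and Btla did with the file date in the model. Cd28 was at 461 ± 93.2 CPM (SD, n = 5) in CtslΔTEC and 371 ± 91.9 CPM (n = 4) in WT cells (log2 0.32, SE 0.18, edgeR adjusted p = 0.337), and with file date as a factor it was higher in CtslΔTEC cells (log2 0.42, adjusted p = 0.0121). Icos, the second costimulatory receptor, was at 75.7 ± 4.73 and 84.2 ± 8.32 CPM (log2 -0.15, SE 0.08, edgeR adjusted p = 0.262), and it passed without WT mouse 3 (log2 -0.22, adjusted p = 0.0980). Btla was at 119 ± 27.3 and 156 ± 26.8 CPM (log2 -0.39, SE 0.16, edgeR adjusted p = 0.165). It was lower in CtslΔTEC cells with file date as a factor (log2 -0.34, adjusted p = 0.0524), with DESeq2 (adjusted p = 0.0976) and without CtslΔTEC mouse 2 (edgeR adjusted p = 0.0657). Pdcd1, which encodes PD-1, was at 4.58 ± 1.02 and 4.87 ± 0.259 CPM (log2 -0.09, SE 0.17, adjusted p = 0.817). Tigit had only 7 to 13 counts per library (log2 -0.32, SE 0.30, adjusted p = 0.576).

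Since CTLA-4 and CD28 compete for the same ligands, the ratio of their transcripts was also taken. Cd28 exceeded Ctla4 12.9- to 38.2-fold in unstimulated CtslΔTEC libraries (median 17.6) and 31.7- to 125-fold in WT libraries (median 70.2, per-length scale). The ranges overlapped, and the difference did not pass (exact permutation test of the log2 ratio, two-sided, p = 0.0714). After stimulation the ratio was 13.6 and 18.2 in CtslΔTEC and 13.3 and 28.9 in WT libraries.

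These differences moved together with the DP thymocyte markers and with sex given above. The part of the DP markers in them was not tested. Sex was tried only in fits that rest on WT mouse 3. Mouse 3 was the only WT mouse that expressed Y-linked genes. All 5 CtslΔTEC mice, which expressed them too, were higher than it for Ctla4 (5.44 CPM or more against 1.12), Cd160 (2.63 CPM or more against 1.52) and Lag3 (0.408 CPM or more against 0.297), and lower for Cd200 (10.5 CPM or less against 10.8). As the ranges of these 4 genes did not overlap between the genotypes, this holds against any WT mouse and cannot separate sex from genotype. With the Y-linked level as a covariate, Ctla4 alone passed (log2 3.02, edgeR adjusted p = 0.0558). The log2 fold change was then 1.07 for Lag3 (adjusted p = 0.589), 1.24 for Cd160 (adjusted p = 0.164) and -0.36 for Cd200 (adjusted p = 0.592). That fit rests on mouse 3 as the only WT mouse that expressed Y-linked genes. Within the second file date, with 3 libraries of each genotype, the log2 fold change was 1.71 for Cd160 (edgeR adjusted p = 0.00236), 1.54 for Ctla4 (adjusted p = 0.0900), -0.73 for Cd200 (adjusted p = 0.00422) and 0.34 for Cd28 (adjusted p = 0.0438), which was thus also called. The first date held only 1 WT library. Markers of regulatory T cells, which carry CTLA-4 and TIGIT, summed to 176 to 223 CPM in unstimulated CtslΔTEC and 125 to 152 CPM in WT cells. The largest part was Izumo1r (100 to 132 against 43.9 to 64.2 CPM). Of the 9 tested genes of this list 2 were higher and 2 lower (6.42% and 8.36% of all genes), and the defining gene Foxp3 overlapped (0.670 to 1.15 and 0.611 to 1.11 CPM). For NK, gamma delta and innate-like T cells, which use CD160, the list summed to 194 to 263 against 143 to 174 CPM, almost all of it Trdc. Of its 5 tested genes 1 was higher and 1 lower, against the same shares of all genes. Within the list, Ncr1 (0 counts in all 13 libraries), Klrb1c and Zbtb16 (at most 0.132 and 0.253 CPM) were at or near 0. Trdc was at 191 to 259 CPM in unstimulated CtslΔTEC and 140 to 170 CPM in WT cells.

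**Figure D2:**
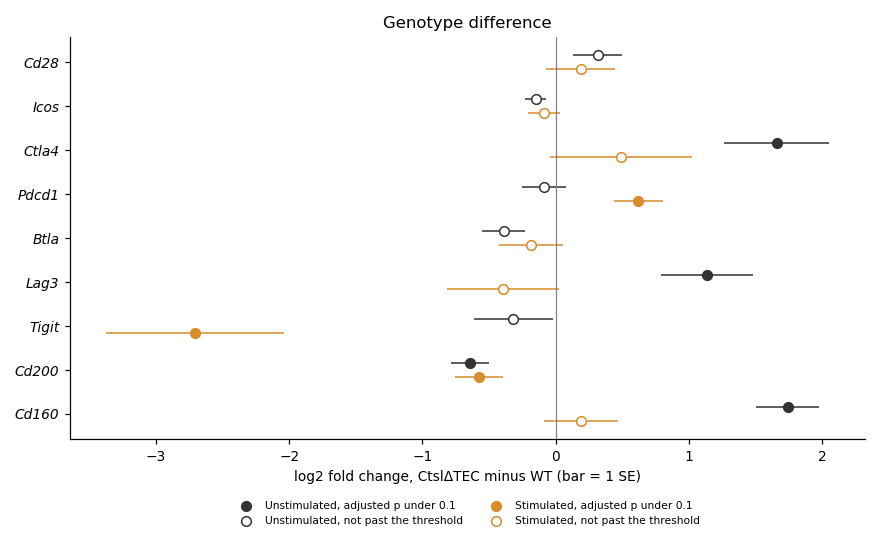
Log2 fold change of each receptor gene, CtslΔTEC minus WT, with 1 SE, in unstimulated (black, n = 5 and 4) and stimulated cells (orange, n = 2 and 2); filled points have an edgeR adjusted p under 0.1. Cd200 is at -0.64 and -0.57, the only gene filled in both states, and Tigit at -2.71 in stimulated cells.

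In stimulated cells Pdcd1 was higher and Tigit and Cd200 were lower in CtslΔTEC than in WT cells. Of these, Cd200 was also called in unstimulated cells, and Ctla4, Cd160 and Lag3 did not pass after stimulation. These 3 of 9 genes (33.3%) compare with 13.3% of the 14241 genes tested in the 4-group model of 13 libraries. Here 1 gene was higher, against 2.77% of all genes, and 2 were lower, against 10.6%. The ranges of the same 3 genes did not overlap, as was the case for 49.6% of all genes with 2 libraries against 2. A permutation test of 2 against 2 cannot go below p = 0.333, so none is given.

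Pdcd1 was at 193 and 214 CPM in CtslΔTEC and 117 and 147 CPM in WT libraries. Both CtslΔTEC libraries lay above both WT libraries, at 1.54-fold (log2 0.62, SE 0.18, edgeR adjusted p = 0.05). Without CtslΔTEC mouse 6, CtslΔTEC mouse 7 or WT mouse 5 the call was lost (adjusted p up to 0.348). Cd200 was at 47.1 and 53.6 CPM in CtslΔTEC and 72.7 and 77.1 CPM in WT libraries. As before stimulation, every CtslΔTEC library was below every WT library (log2 -0.57, SE 0.18, adjusted p = 0.0629). The call was kept in 8 of 13 leave-one-out fits, and it was lost with a correction for transcript length (log2 -0.16, adjusted p = 0.763).

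Tigit showed the largest genotype difference after stimulation but rested on few reads. Each CtslΔTEC library held 4 counts (0.361 and 0.253 CPM), and the WT libraries held 26 and 23 counts (3.44 and 0.893 CPM). The WT libraries were far apart, mouse 5 with the shallowest library being the higher, and both lay above the CtslΔTEC libraries. Exact Poisson intervals (95%, counting error only) were 0.0984 to 0.925 and 0.0689 to 0.648 CPM in CtslΔTEC, 2.25 to 5.04 CPM in WT mouse 5 and 0.566 to 1.34 CPM in WT mouse 6, so those of WT mouse 6 and of both CtslΔTEC libraries overlapped. The log2 fold change was -2.71 (SE 0.67, edgeR adjusted p = 0.0199). Without WT mouse 5 it was -1.56 and the call was lost (adjusted p = 0.196), as it was without CtslΔTEC mouse 7 (log2 -2.46). DESeq2 gave no adjusted p for it.

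The stimulated differences also moved together with markers of other cells, whose part in them was not tested. Of 8 DP thymocyte markers 3 were higher and 1 was lower in stimulated CtslΔTEC cells (2.77% and 10.6% of all genes), and the list summed to 79.9 and 86.1 CPM against 35.9 and 41.7 CPM in WT cells. Of 10 regulatory T cell markers none was higher and 4 were lower, while their sum overlapped (1025 and 1075 against 1031 and 1036 CPM) and was mostly Il2ra. Foxp3 was at no more than 2 counts in any stimulated library. Sums also did not overlap for the NK, gamma delta and innate-like T cell list (188.9 and 191.5 against 165.1 and 174.8 CPM). The same held for myeloid and dendritic cells (22.83 and 24.74 against 31.24 and 43.57 CPM) and thymic epithelial cells (14.16 and 16.34 against 11.65 and 13.71 CPM). Those of B cells and erythroid cells overlapped.

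The remaining genes overlapped between stimulated genotypes. Cd160 was at 18.5 and 18.8 CPM in CtslΔTEC and 14.1 and 18.9 CPM in WT libraries (log2 0.19, SE 0.28, edgeR adjusted p = 0.748). Ctla4 was at 16.5 and 18.5 CPM in CtslΔTEC, and the WT libraries were at 17.1 and 8.58 CPM (log2 0.49, SE 0.53, adjusted p = 0.651). Lag3 was at 4.51 and 5.25 CPM in CtslΔTEC, between the WT libraries at 3.71 and 8.78 CPM (log2 -0.39, SE 0.42, adjusted p = 0.644). For these 3 genes, then, the WT pair was more spread than the CtslΔTEC pair. Cd28, Icos and Btla had log2 fold changes of 0.19, -0.09 and -0.18 (adjusted p 0.718 to 0.731).

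Nearly the whole group was higher in stimulated cells, where stimulation, file date and time in culture cannot be told apart. In WT cells all 9 genes rose, against 32.9% of all 14241 genes that were called higher, and in CtslΔTEC cells 8 of 9 rose, against 32.9%. Calls in either direction took 67.7% and 71.2% of all genes. No gene of the group fell in either genotype, while 34.8% and 38.2% of all genes did. The median log2 fold change of the 9 genes was 2.32 in both genotypes, with 0.01 and -0.06 over all genes tested. Stimulated and unstimulated ranges did not overlap for 9 and 8 of the genes (69.4% and 72.1% of all genes).

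The largest rise was that of Pdcd1, an early target of T cell receptor signals. It went from 4.50, 4.91, 5.01 and 5.07 CPM to 117 and 147 CPM in WT cells, and from 3.29, 3.87, 4.94, 4.95 and 5.88 CPM to 193 and 214 CPM in CtslΔTEC cells. The groups were far apart in both genotypes, at 27.2-fold (log2 4.76, SE 0.17, edgeR adjusted p = 9.7e-12) and 44.4-fold (log2 5.47, SE 0.16, adjusted p = 8.7e-13). Lag3 followed in WT cells at 22.8-fold (log2 4.51, SE 0.40, adjusted p = 1.2e-07). It went from 0.167 to 0.406 CPM to 3.71 CPM in WT mouse 5 and 8.78 CPM in WT mouse 6, which were far apart. In CtslΔTEC cells Lag3 rose 7.91-fold (log2 2.98, SE 0.35, adjusted p = 2.3e-06). Cd160 rose 14.6-fold in WT (log2 3.86, SE 0.25, adjusted p = 4.6e-09) and 4.98-fold in CtslΔTEC cells (log2 2.32, SE 0.22, adjusted p = 2.2e-07).

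Btla, Cd200 and Icos rose by like amounts in both genotypes. Btla, at 128 to 193 CPM in unstimulated WT and 85.9 to 156 CPM in unstimulated CtslΔTEC libraries, reached 569 and 803 CPM and 582 and 628 CPM (log2 2.14 in WT and 2.35 in CtslΔTEC cells). Icos went from 72.9 to 92.7 CPM to 242 and 254 CPM in WT and from 69.1 to 80.3 CPM to 217 and 250 CPM in CtslΔTEC libraries (log2 1.56 and 1.62). Cd200 rose by log2 2.55 and 2.62. All 6 of these changes had edgeR adjusted p of 2.4e-07 or less.

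The response was smaller for Cd28, and for Ctla4 and Tigit in CtslΔTEC cells. Cd28 went from 243, 373, 410 and 457 CPM to 546 and 592 CPM in WT libraries (log2 0.62, SE 0.22, edgeR adjusted p = 0.0223) and from 327 to 566 CPM to 589 and 707 CPM in CtslΔTEC libraries (log2 0.49, SE 0.21, adjusted p = 0.0508). The CtslΔTEC call was lost without mouse 6 of the stimulated pair (adjusted p = 0.324), and the WT call without mouse 6 of the stimulated WT pair (adjusted p = 0.138). Ctla4 rose 4.31-fold in WT cells (log2 2.11, SE 0.46, adjusted p = 0.00101) and 1.93-fold in CtslΔTEC cells (log2 0.95, SE 0.42, adjusted p = 0.0609). The latter was not called by DESeq2 or without unstimulated mouse 5 or either stimulated mouse. Tigit rose in WT cells (log2 2.32, SE 0.48, adjusted p = 6.4e-04), from 0.333 to 0.456 CPM to 3.44 CPM in mouse 5 and 0.893 CPM in mouse 6. The larger rise was thus in the shallowest library. In CtslΔTEC cells Tigit was at 0.318 ± 0.102 CPM (SD, n = 5) before and 0.307 ± 0.0765 CPM (n = 2) after stimulation (log2 -0.06, SE 0.63, adjusted p = 0.937).

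**Figure D3:**
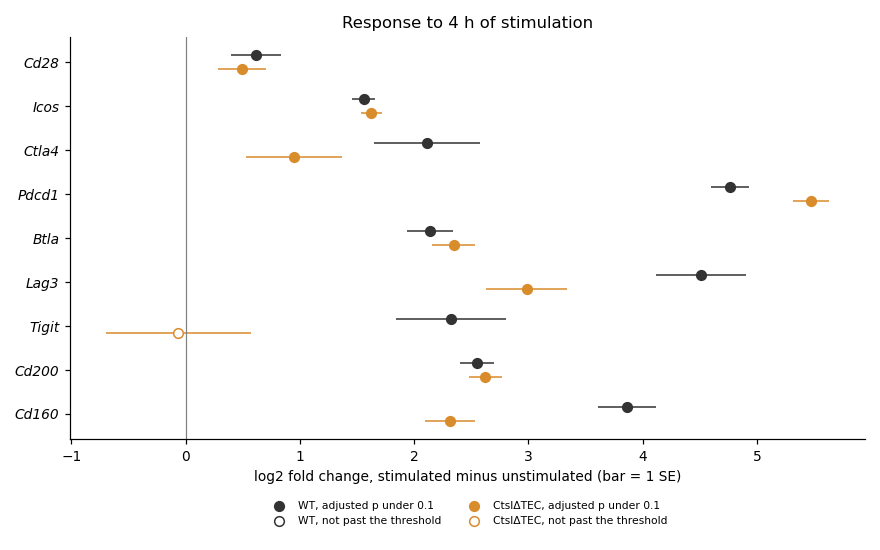
Log2 fold change of each receptor gene, stimulated minus unstimulated, with 1 SE, in WT (black, n = 2 and 4) and CtslΔTEC cells (orange, n = 2 and 5); filled points have an edgeR adjusted p under 0.1. Pdcd1 is farthest to the right (4.76 and 5.47), Cd160 is at 3.86 and 2.32, and Tigit in CtslΔTEC cells (-0.06) is the only open point.

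Whether the response differed between the genotypes was tested by the interaction term. Cd160 alone passed, 1 of 9 genes (11.1%) against 6.01% of all genes, with a positive interaction in 1.13% and a negative one in 4.88%. Its response was 2.93-fold smaller in CtslΔTEC cells (log2 -1.55, SE 0.35, edgeR adjusted p = 0.0291), which started from a higher level and ended at a like one. The call was lost without stimulated CtslΔTEC mouse 6 or stimulated WT mouse 5 (adjusted p up to 0.135). For the other genes the interaction was log2 0.71 for Pdcd1 (SE 0.23, adjusted p = 0.124), -2.39 for Tigit (SE 0.79, adjusted p = 0.124), -1.53 for Lag3 (SE 0.56, adjusted p = 0.171) and -1.16 for Ctla4 (SE 0.65, adjusted p = 0.414). Cd28, Icos, Btla and Cd200 lay between -0.13 and 0.21 (adjusted p 0.807 to 0.932). Pdcd1 also passed with DESeq2, with either other count filter and when every library was thinned to the depth of the shallowest one.

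Most of the genes were carried by 1 transcript, whose share differed little between the groups. Cd160-201, which starts inside the gene at the promoter shown above, took 83.1% of the TPM of Cd160 in unstimulated WT and 87.1% in unstimulated CtslΔTEC cells, and 89.4% and 88.7% after stimulation. It held 12.7 to 30.9 estimated counts in unstimulated WT against 68.1 to 141 in unstimulated CtslΔTEC libraries, ranges that did not overlap. The other transcripts, Cd160-202 and Cd160-203, begin at the upstream start, whose promoter window overlaps an exon of Pdzk1 on the opposite strand. Btla-202, a full-length coding transcript, took 68.0%, 67.0%, 72.2% and 73.5% of Btla in the same order of groups. Icos-202, the longer of the 2 coding transcripts, took 78.1% to 84.5% of Icos.

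Cd200 was the exception. Its coding transcript Cd200-202 fell from 30.7% to 15.6% of the TPM of the gene on stimulation in WT and from 29.4% to 10.3% in CtslΔTEC cells, while the 281-base non-coding Cd200-210 rose from 37.6% to 69.7% and from 46.9% to 79.7%. In estimated counts Cd200-202 still held most reads, 425 to 1503 in stimulated WT and 365 to 575 in stimulated CtslΔTEC libraries, against 60.5 to 249 and 105 to 162 for Cd200-210. Reads of a 281-base transcript are divided by a small effective length, so the shares of TPM and of counts differ. On the TPM scale Cd200-202 was at 30.4 and 35.1 TPM in stimulated WT and 18.8 and 20.8 TPM in stimulated CtslΔTEC libraries, without overlap.

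**Figure D4:**
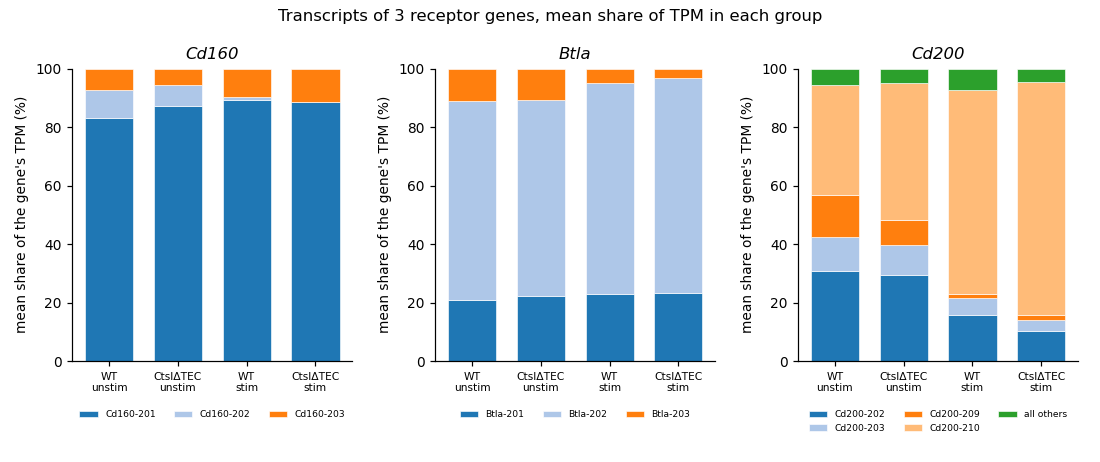
Mean share of the TPM of Cd160, Btla and Cd200 taken by each transcript (percent of the gene, stacked to 100%) in the 4 groups; transcripts under 5% in every group are pooled as all others. Cd160-201 and Btla-202 lead in every group, whereas Cd200-210 grows from 37.6% to 69.7% in WT and from 46.9% to 79.7% in CtslΔTEC cells on stimulation.

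Among 14 ligands and counter-receptors of the group, 10 were tested in unstimulated cells, of which 2 were higher and 1 was lower in CtslΔTEC cells (6.42% and 8.36% of all genes). The one that fell was Cd200r1, the receptor of CD200. It was at 32.0 to 39.8 CPM in unstimulated WT and 17.3 to 22.5 CPM in CtslΔTEC libraries (log2 -0.87, SE 0.09, edgeR adjusted p = 1.2e-04). After stimulation it was at 2.78 and 3.38 CPM in WT and 0.253 and 0.722 CPM in CtslΔTEC libraries (log2 -2.80, SE 0.34, adjusted p = 2.1e-04). On stimulation Cd200 rose while Cd200r1 fell. The fall of Cd200r1 was larger in CtslΔTEC cells (interaction log2 -1.93, adjusted p = 0.0140). Higher in CtslΔTEC cells were Pvr, which encodes the TIGIT ligand CD155 (log2 0.31, adjusted p = 0.0112), and Cd86 (log2 1.00, adjusted p = 0.0584), the latter at under 1 CPM on average in every group.

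On stimulation 4 ligand genes rose and 2 fell in WT cells, and 4 rose and 3 fell in CtslΔTEC cells, of 11 tested. Of all genes, 32.9% rose and 34.8% fell in WT and 32.9% rose and 38.2% fell in CtslΔTEC cells, so these shares were near the background for the genes that rose. Cd274, encoding the PD-1 ligand PD-L1, rose from 16.6 to 23.4 CPM to 830 and 1200 CPM in WT and from 18.7 to 26.6 CPM to 1134 and 1201 CPM in CtslΔTEC libraries (log2 5.68 and 5.66). Tnfsf14, which encodes LIGHT, another ligand of HVEM, rose from at most 1.00 CPM to 163 and 198 CPM in WT and from at most 0.845 CPM to 159 and 198 CPM in CtslΔTEC libraries (log2 7.89 and 8.0). Pdcd1 and Cd274, a receptor gene and that of its ligand, thus rose in the same libraries. Tnfrsf14, which encodes HVEM, fell in both (log2 -0.98 and -1.34).

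Among 17 other receptors of the immunoglobulin and SLAM families, 4 of 13 tested were higher and 2 lower in unstimulated CtslΔTEC cells (6.42% and 8.36% of all genes), and 5 of 14 were higher and 1 lower after stimulation (2.77% and 10.6%). Slamf6, a self-binding receptor of T and NK cells, was at 161 to 250 CPM against 51.1 to 76.8 CPM before stimulation (log2 1.56, SE 0.14, edgeR adjusted p = 3.5e-05). Cd226, the activating competitor of TIGIT, was at 120 to 177 CPM against 75.0 to 111 CPM (log2 0.73, adjusted p = 0.00664). It was at 45.8 and 49.5 CPM against 17.9 and 18.8 CPM after stimulation (log2 1.37, adjusted p = 0.00125), in the cells in which Tigit was lower. Vsir, which encodes the inhibitory receptor VISTA, was higher after stimulation (2086 and 2172 against 1084 and 1558 CPM, log2 0.69, adjusted p = 0.0103) and responded more in CtslΔTEC cells (interaction log2 0.91, adjusted p = 0.0159). Lair1, an inhibitory collagen receptor, was lower before stimulation (5.11 to 7.08 against 10.3 to 14.7 CPM, log2 -1.05, adjusted p = 3.8e-04).

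**Figure D5:**
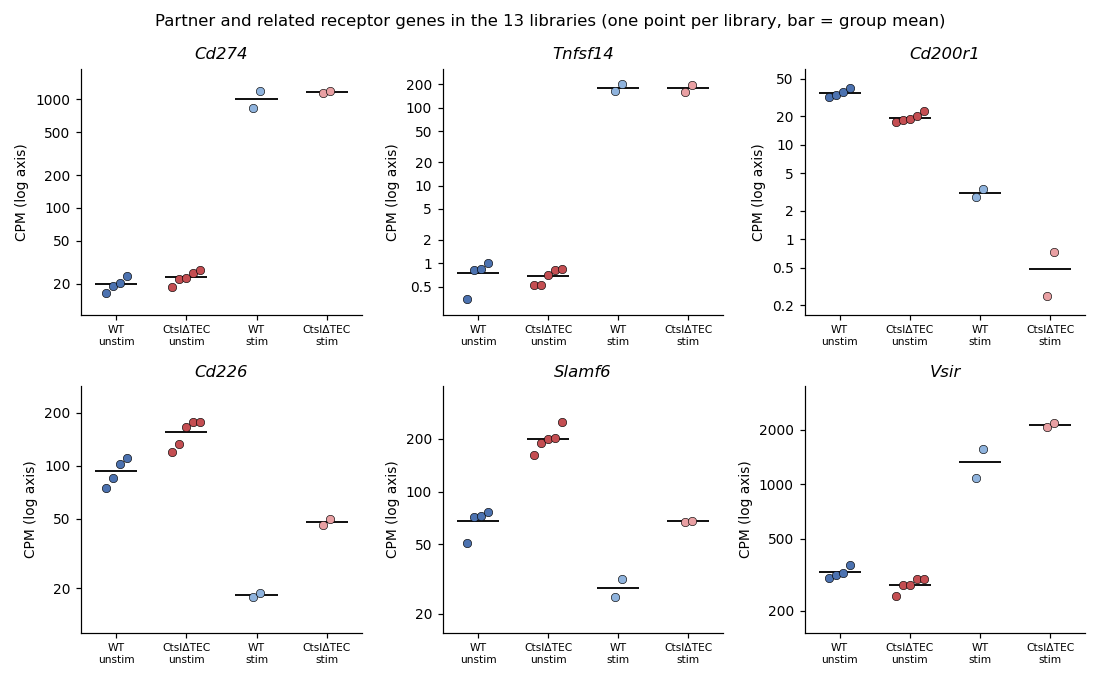
Level in CPM (log axis) of 3 ligand or counter-receptor genes and 3 related receptor genes in the 13 libraries, one point per library with a bar at the group mean, colours as for the receptor genes. Cd274 and Tnfsf14 rise in both genotypes, Cd200r1 falls to 0.253 and 0.722 CPM in stimulated CtslΔTEC cells, and Cd226 and Slamf6 are higher in CtslΔTEC cells in both states.

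Of 15 genes of CD28 and ICOS signaling, none was higher and 3 were lower in unstimulated CtslΔTEC cells (8.36% of all genes were lower), among them Malt1 (log2 -0.40, edgeR adjusted p = 0.00868), part of a complex that activates NF-kB. After stimulation 3 were lower (10.6% of all genes), including Pik3cd, a catalytic subunit of PI3 kinase (log2 -0.82, adjusted p = 0.00342). Of 14 tested genes of inhibitory receptor signaling, Ptpn22, a phosphatase of the T cell receptor pathway, was higher and Csk lower in both states (log2 0.39 and -0.30 unstimulated, 0.38 and -0.47 stimulated). These were the only calls of that list in unstimulated cells, 1 in each direction, against 6.42% and 8.36% of all genes. Dok2, an adaptor that restrains T cell signaling, was also lower after stimulation (log2 -0.69, edgeR adjusted p = 0.0573), which made 1 higher and 2 lower against 2.77% and 10.6% of all genes. On stimulation 10 of 15 genes of CD28 and ICOS signaling fell and 3 rose in WT cells (34.8% and 32.9% of all genes), and 9 fell and 3 rose in CtslΔTEC cells (38.2% and 32.9%). Of the 14 tested genes of inhibitory receptor signaling, 5 rose and 7 fell in WT cells (32.9% and 34.8% of all genes). In CtslΔTEC cells 6 rose and 8 fell (32.9% and 38.2%). Among those that rose in both was Cblb, an E3 ligase that raises the need for CD28 (log2 2.06 and 1.87).

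Of 14 genes of receptor trafficking, shedding and mRNA turnover, 1 was lower in unstimulated CtslΔTEC cells (8.36% of all genes), and 1 was higher and 1 lower after stimulation (2.77% and 10.6%). Adam10, a protease that sheds LAG-3, was the higher one (log2 0.52, edgeR adjusted p = 0.0263). The lower one, Trat1, which encodes an adaptor (TRIM) that helps CTLA-4 to the cell surface, was at 6.05 and 7.53 CPM in stimulated CtslΔTEC and 26.7 and 50.8 CPM in stimulated WT libraries (log2 -2.47, SE 0.32, edgeR adjusted p = 3.6e-04). Its fall on stimulation was larger in CtslΔTEC cells (interaction log2 -2.21, adjusted p = 0.00628), while Ctla4 RNA itself overlapped between the stimulated genotypes.

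Of 20 transcription factors known to act on these receptor genes, 3 of 19 tested were higher and 4 lower in unstimulated CtslΔTEC cells (6.42% and 8.36% of all genes). Irf4, which binds with BATF near many activation genes, was lower (log2 -0.96, edgeR adjusted p = 0.0162), as were Gata3 (log2 -0.80, adjusted p = 1.8e-04) and Maf (log2 -0.67, adjusted p = 0.00420), and Bcl6 was higher (log2 0.79, adjusted p = 1.2e-04). After stimulation 4 of 20 were higher and 4 lower (2.77% and 10.6% of all genes), among them Nr4a2 (log2 1.25, edgeR adjusted p = 0.0622), which was higher, and Batf (log2 -0.94, adjusted p = 0.0206), Gata3 (log2 -0.92, adjusted p = 0.00328) and Maf (log2 -0.92, adjusted p = 0.0353), which were lower. On stimulation 11 of 20 rose and 6 fell in WT cells (32.9% and 34.8% of all genes), and 10 rose and 6 fell in CtslΔTEC cells (32.9% and 38.2%), with Nr4a1 (log2 5.97 and 6.66) and Nr4a3 (log2 7.64 and 7.94) among those that rose. All 9 activation markers rose in both genotypes. Of 8 activation markers tested in unstimulated cells, 1 was higher and 1 lower in CtslΔTEC cells (6.42% and 8.36% of all genes). Il2ra was higher (6.52 to 12.9 against 2.01 to 2.61 CPM, log2 2.0, edgeR adjusted p = 6.8e-05) and Cd40lg lower (68.5 to 88.6 against 96.9 to 119 CPM). After stimulation none of 9 was higher and 1 was lower (2.77% and 10.6% of all genes), which was Il2 (log2 -3.55, edgeR adjusted p = 5.9e-05).

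The genes whose log2 CPM followed a receptor gene most closely over the 13 libraries were also taken. A shared step on stimulation would raise such coefficients, and this was not tested for the genes named. Icos was closest to Il15ra, Crem and Gcsh (Pearson r 0.995 to 0.992, over 13 libraries). Lag3 was closest to Lta, Tor3a and Gfi1 (r 0.976 to 0.975) and Cd160 to Impact, Cst7 and Tbc1d30 (r 0.980 to 0.967). Btla had Atp2a2, Uxs1 and Gnpda1 (r = 0.989 each) and Cd200 had Chsy1, Rilpl2 and Noa1 (r 0.995 to 0.994) as its closest genes. Tigit (Pmvk, Sesn2 and Clic4, r 0.959 to 0.936), Cd28 (Zfp275, Zranb2 and Yipf6, r 0.974 to 0.956) and Ctla4 (Vat1, Dhrs11 and Car2, r 0.907 to 0.897) had less close ones. These coefficients describe 13 libraries of 4 groups and were not tested.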

How the data were processed

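RNA of sorted M2 CD4SP thymocytes from 13 mice was sequenced as paired reads. Labels give polyA RNA, whereas the methods of the study describe rRNA depletion, and the files do not settle this. The authors quantified transcripts with kallisto 0.48 (submitters' processing notes) against Ensembl release 106 and deposited estimated counts, effective lengths and TPM values per transcript. The deposited estimated counts are not normalized. The deposited TPM values are scaled per library to length and total, and TPM was used to set genes side by side. Here 116397 of 117497 transcripts were paired with a gene through GENCODE M21, and estimated counts were summed and rounded. The 1100 others held at most 0.461% of a library.

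Groups came from the labels. Genes kept by filterByExpr were tested in R 4.3.3 with edgeR 4.0.16 (quasi-likelihood, TMM, Benjamini-Hochberg, threshold 0.1). The unstimulated comparison used 9 libraries, and the others a 4-group model of 13. CPM are TMM-scaled, log2 CPM used a prior count of 2, and SE derive from the F statistic. Unstimulated levels were also compared by an exact permutation test over 126 splits. The fits were tested on simulated data. Each library is 1 mouse, so p-values measure spread between mice, and intervals cover counting error only. DESeq2 1.42.0, other normalizations, filters, lengths, sex, file date, mouse number and single mice were tried as alternatives. The receptor genes and gene lists were chosen with earlier results of these data known. Named were the 9 genes, up to 4 genes per list and comparison with the largest called change, the 3 genes closest to each receptor gene in log2 CPM, and a set of check genes. Tnfrsf14 was added after its values were seen. The genes closest in pattern to Pdcd1 are not reported here.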

Additional observations from a re-analysis of the deposited data

Results flagged for a closer look

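The response of Cd160 to stimulation differed between the genotypes, as tested by the interaction of genotype and stimulation (log2 -1.55, SE 0.35, edgeR adjusted p = 0.0291). Cd160 rose by log2 3.86 in WT and 2.32 in CtslΔTEC cells, from 0.805 to 1.52 CPM and 2.63 to 4.54 CPM before to 14.1 to 18.9 CPM and 18.5 to 18.8 CPM after stimulation. No single library stood apart from its group in the 18 combinations of gene and unstimulated group that were checked by Dixon's test, of which chance would flag about 5%.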

How the results depend on the processing

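With the Y-linked level as a covariate, the unstimulated genotype comparison called 1 of the 9 genes (Ctla4) in place of 4, and 430 in place of 1943 of all genes, with log2 fold changes of 1.07 for Lag3 (1.13 without the covariate), 1.24 for Cd160 (1.74) and -0.36 for Cd200 (-0.64). Among Y-expressing libraries alone, an alternative chosen after seeing the data, the log2 fold change was 1.03 for Lag3, 1.30 for Cd160 and -0.40 for Cd200. There the lone WT library, mouse 3, had the lowest Ctla4 level of the WT mice and is assumed to vary like the others. File date as a factor raised the count to 6 (Cd28 and Btla added, and 2710 of all genes), and DESeq2 to 5 (Btla added). With a library left out, the calls ranged from 3 to 5 for unstimulated genotypes, from 0 to 3 for stimulated genotypes (0 without CtslΔTEC mouse 7 or WT mouse 5, 1 without CtslΔTEC mouse 6), from 8 to 9 for the response in WT, from 6 to 8 for the response in CtslΔTEC cells and from 0 to 3 for the interaction (0 without stimulated CtslΔTEC mouse 6 or WT mouse 5, 3 without stimulated WT mouse 6). A left-out stimulated mouse leaves 1 library in its group, which is assumed to vary like the others. The interaction called 2 genes with DESeq2, without a count filter, with at least 10 counts in every library and after thinning (Pdcd1 and Cd160), and 2 with the Y-linked covariate (Tigit and Cd160). On the TPM scale the exact permutation p of Lag3 was 0.111 in place of 0.0159 and that of Cd200 was 0.0556 in place of 0.0159. The cause of these changes was not tested.

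With the mouse number as a replicate block, 4 of the 9 genes passed in unstimulated cells (Ctla4, Btla, Cd200 and Cd160, and 1056 of all genes), and Lag3 did not. The numbers name different animals, and same-numbered mice did not deviate together (r from -0.27 to 0.53, with 1 of 4 mice closest to its own number), so they share only a number. The stimulated groups share 1 number and allow no such fit. Of 1035 fold changes of single genes under all alternatives, 981 stayed on their side of the threshold, 39 lost and 15 gained a call, and 0 reversed a call. Tigit had 4 to 26 counts per library and Lag3 6 to 36 in unstimulated libraries, the lowest depth among the 9 genes.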
